A study of Mus musculus with 4 samples.

Results

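The guanylate binding proteins of the mouse were followed at the RNA level in telomerase-deficient embryonic stem cells before and after the onset of alternative lengthening of telomeres (ALT). The family was taken as the 10 genes *Gbp2*, *Gbp2b*, *Gbp3*, *Gbp4*, *Gbp5*, *Gbp6*, *Gbp7*, *Gbp8*, *Gbp9* and *Gbp10*, matched by their exact symbols among the 53379 genes measured. These genes were chosen with their values in the 2 groups known. Their levels are therefore given as a description with no test, and tests are given only for genes outside the family. In short, the summed RNA of the family was 8.28-fold lower in post-ALT than in pre-ALT cells, the 3 members with the highest level per transcript length in pre-ALT cells were lower by 7.51-fold to 24.7-fold, and *Gbp5* overlapped between the groups at a low level. Of 74 tested genes of the interferon pathway outside the family, 38 passed the test as lower and 2 as higher, against 8.81% and 6.28% of all tested genes, and 20 were lower when a change over 2-fold was itself tested. These lists were also chosen with earlier results of these data known, so the shares are a description of them only.

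All 4 libraries came from DKO741, a single Terc-/- line made from E14 mouse embryonic stem cells (mESCs) by targeting both alleles of *Terc*, the gene of the telomerase RNA. The labels place 2 libraries at population doubling 100 (PD100, pre-ALT) and 2 at population doubling 800 (PD800, post-ALT), no treatment other than prolonged culture is named, and both groups carry the same deletion. The labels also call these time points passages, and they name total RNA where the study's text speaks of mRNA. The line was kept on a fibroblast layer between experiments, and the RNA is described as taken from cultures free of that layer. The study's methods call the libraries biological duplicates, but since both groups came from 1 line at 1 time point each, p-values measure only the spread between these samples, and time in culture, ALT and events in this clone cannot be told apart.

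Guanylate binding proteins are large GTPases of the dynamin superfamily and are among the most strongly interferon-inducible proteins of mammalian cells. They assemble on the vacuoles and membranes of intracellular bacteria and parasites, break them open together with the immunity-related GTPases (IRG proteins), and help to activate inflammasomes. Interferon-gamma acts through its receptor and the kinases JAK1 and JAK2. Promoters of its target genes often hold gamma-activated sites (GAS) or interferon-stimulated response elements (ISRE), the latter bound by interferon regulatory factors such as IRF1. Some members, among them GBP2 and GBP5, carry a C-terminal motif for the attachment of a lipid that anchors them to membranes. Pluripotent stem cells are known for weak interferon responses.

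In the coordinates of GRCm38 with GENCODE M21, the members lay in 2 clusters. *Gbp5*, *Gbp7*, *Gbp3*, *Gbp2b* and *Gbp2* followed each other on the plus strand of chromosome 3 within 144 kb, chr3:142493978-142638008, which ended 17.3 Mb from the last annotated base of the chromosome. *Gbp8*, *Gbp9*, *Gbp4*, *Gbp10* and *Gbp6* lay on the minus strand of chromosome 5 within 279.5 kb, chr5:105014150-105293698, and 46.4 Mb from the last annotated base. *Gbp8*, *Gbp9* and *Gbp4* overlapped in the annotation.

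RefSeq promoters (GRCm38.p6, 250 bases before to 50 bases after the annotated start) were at hand for *Gbp2b*, *Gbp2*, *Gbp3*, *Gbp7* and *Gbp5*, the members of chromosome 3, and are shown because these genes share an interferon element but differ in level and in change. All are on the plus strand, and capitals mark the letters of an ISRE core, GAAA followed by any 2 bases and a further GAAA on either strand, or of a GAS core, TTCNNNGAA, which reads the same on both strands.
Gbp2b (chr3:142594597-142594896): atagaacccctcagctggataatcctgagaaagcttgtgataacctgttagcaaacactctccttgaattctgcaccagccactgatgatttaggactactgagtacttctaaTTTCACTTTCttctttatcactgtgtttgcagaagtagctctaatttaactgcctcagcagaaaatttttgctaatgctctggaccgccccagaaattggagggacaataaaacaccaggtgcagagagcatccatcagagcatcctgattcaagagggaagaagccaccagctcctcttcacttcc
Gbp2 (chr3:142620413-142620712): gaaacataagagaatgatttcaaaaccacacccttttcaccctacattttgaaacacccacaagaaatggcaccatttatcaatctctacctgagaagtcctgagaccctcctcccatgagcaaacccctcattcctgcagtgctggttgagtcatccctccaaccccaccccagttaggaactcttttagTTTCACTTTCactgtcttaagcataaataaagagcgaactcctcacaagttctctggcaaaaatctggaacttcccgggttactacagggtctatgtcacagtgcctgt
Gbp3 (chr3:142559794-142560093): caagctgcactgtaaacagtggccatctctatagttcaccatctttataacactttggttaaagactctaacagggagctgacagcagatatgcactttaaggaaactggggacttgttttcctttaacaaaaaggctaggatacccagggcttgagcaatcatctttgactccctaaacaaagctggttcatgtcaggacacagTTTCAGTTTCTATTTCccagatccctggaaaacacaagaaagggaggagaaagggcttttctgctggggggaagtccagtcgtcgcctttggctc
Gbp7 (chr3:142530086-142530385): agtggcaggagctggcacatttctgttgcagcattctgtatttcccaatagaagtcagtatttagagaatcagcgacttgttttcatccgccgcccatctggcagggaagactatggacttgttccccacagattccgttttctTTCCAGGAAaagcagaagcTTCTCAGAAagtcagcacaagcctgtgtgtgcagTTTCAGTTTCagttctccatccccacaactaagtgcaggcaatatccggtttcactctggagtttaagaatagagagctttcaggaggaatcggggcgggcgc
Gbp5 (chr3:142496684-142496983): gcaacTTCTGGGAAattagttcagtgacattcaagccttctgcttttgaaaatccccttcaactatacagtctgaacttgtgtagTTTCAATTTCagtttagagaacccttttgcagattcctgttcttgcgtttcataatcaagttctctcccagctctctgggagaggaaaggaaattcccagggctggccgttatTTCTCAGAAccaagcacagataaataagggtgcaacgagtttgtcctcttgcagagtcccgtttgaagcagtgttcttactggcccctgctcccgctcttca

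The ISRE core was present in all 5 genes, in each case read on the strand opposite to the gene. The match began 59 bases before the start of *Gbp2*, 137 before that of *Gbp2b*, 53 before that of *Gbp7* and 165 before that of *Gbp5*. *Gbp3* had a pair of overlapping matches, beginning 45 and 39 bases before its start, and its other RefSeq start, at chr3:142560106-142560405, had none. *Gbp5* and *Gbp7* also held 2 GAS cores each. *Gbp5* was the member of this cluster whose groups overlapped in level, whereas *Gbp7*, with the same numbers of both cores, was 6.09-fold lower. Of 32851 RefSeq promoters of this length, 1131 (3.44%) held the ISRE core, 2726 (8.30%) the GAS core and 149 (0.454%) both. A match describes letters only, and binding was not measured here.

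Expected counts, the numbers of reads that RSEM assigned to each gene, summed to between 32454121 and 38492149 per library. Of the 53379 genes, 19148 passed the filter on low counts and were tested with edgeR's quasi-likelihood test. A gene is said here to have risen or fallen where its Benjamini-Hochberg adjusted p was under 0.01 and its change larger than 2-fold, which held for 1202 genes (6.28%) that rose and 1686 (8.81%) that fell in PD800 cells. Rises made up 41.6% of these calls, but 24.4% and 23.1% where limma was run on log2 TPM with a pseudocount of 1 and 0.1. A fold below uses CPM, counts scaled to a common library size after normalisation by the trimmed mean of M-values (TMM), and log2 fold changes compare PD800 with PD100, with their standard error (SE). *Terc* had 1 count in PD100 replicate 1 and none in the other 3 libraries. A floor of 3 counts, between 0.0743 and 0.0933 CPM and covering counting error only, was taken as the limit of detection. Over all tested genes the median was 0.01. Counts, CPM and SDs are over 2 libraries per group, and values of a group are given for replicate 1 and then for replicate 2.

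Summed over the 10 members, which avoids the division of reads among related genes, the family had 6118.68 and 4929.08 expected counts at PD100 and 630.63 and 597.69 in PD800 cells. Both PD800 libraries were far below both PD100 libraries. The sum came to 149.5 ± 2.75 CPM (SD, n = 2) at PD100 and 18.1 ± 0.747 CPM in PD800 cells, a difference of 8.28-fold. On the log2 scale the difference was -3.05, and between single libraries of the groups it ran from -3.11 to -2.99. The chromosome 3 members together were at 134.6 ± 1.21 CPM and 11.3 ± 0.914 CPM, which is 12.0-fold lower in PD800 cells. The chromosome 5 members together were at 14.9 ± 1.54 CPM and 6.80 ± 0.167 CPM, which is 2.19-fold lower. In bulk RNA, a smaller share of cells with these transcripts and less of them per cell cannot be told apart.

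Of the 10 members, 8 passed the filter on low counts, while *Gbp8* and *Gbp10* did not. Of these 8, 6 were more than 2-fold lower in PD800 cells, a size that 12.0% of all tested genes reached in this direction. In 7 of the 8 both PD800 libraries lay below both PD100 libraries, which held for 36.3% of all tested genes. None was more than 2-fold higher, against 9.21% of all tested genes, and none had both PD800 libraries above both PD100 libraries, against 37.4%. Nothing is read from these counts, since the members were chosen on this contrast and the filter itself favours genes that are high in 1 group. The plot of CPM by library shows the wide separation of *Gbp7*, *Gbp3*, *Gbp2b* and *Gbp2* beside the overlap at *Gbp5*.

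**Figure D1:**
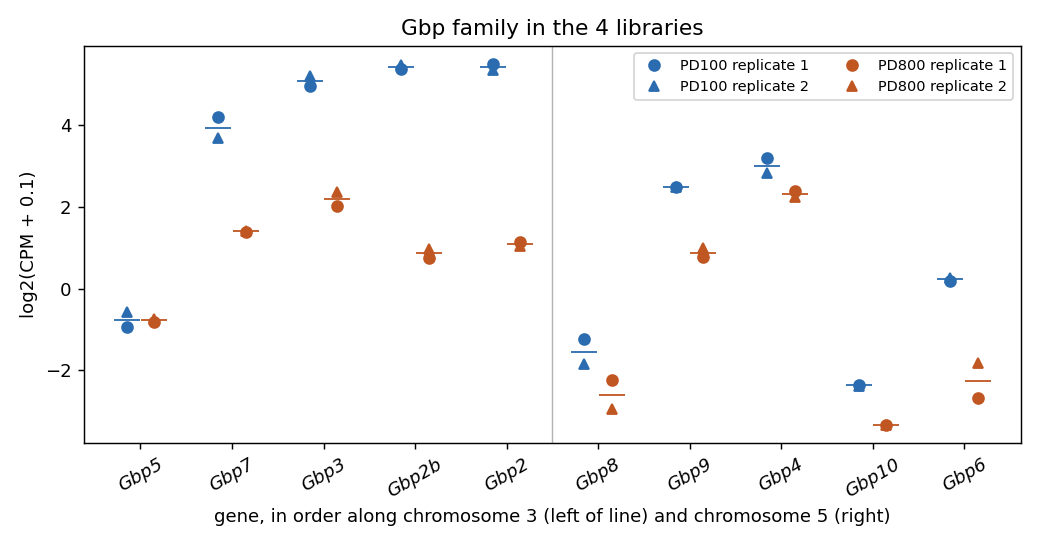
Level of the 10 Gbp genes in each library as log2(CPM + 0.1), in order along chromosome 3 (left of the line) and chromosome 5 (right). Points are libraries and short lines are group means over 2 libraries. *Gbp2b* and *Gbp2* lie above 40 CPM in both PD100 libraries and near 2 CPM in both PD800 libraries, and *Gbp5* is near 0.5 CPM in all 4.

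*Gbp2b* and *Gbp2*, next to each other at the far end of the chromosome 3 cluster, showed the widest differences among the members above the floor. *Gbp2b* (ENSMUSG00000040264, chr3:142594847-142619179), long known as GBP1 of the mouse, had 1668 and 1467 counts at PD100 and 57 and 60 in PD800 cells. It was at 42.6 ± 1.86 CPM and 1.73 ± 0.199 CPM, 24.7-fold lower in PD800 cells (log2 fold change -4.63, SE 0.12). *Gbp2* (ENSMUSG00000028270, chr3:142620602-142638008), a lipid-anchored member recruited to the vacuoles of parasites, had 1810 and 1340 counts against 76 and 63. Its levels of 42.5 ± 3.31 CPM and 2.04 ± 0.109 CPM made it 20.9-fold lower (-4.38, SE 0.12). In both genes the groups were far apart.

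*Gbp3* and *Gbp7* lie in the middle of the same cluster. *Gbp3* (ENSMUSG00000028268, chr3:142560026-142573209) had 1246.75 and 1215.36 counts at PD100 and 142 and 161 in PD800 cells. It was at 33.6 ± 3.91 CPM and 4.48 ± 0.749 CPM, 7.51-fold lower in PD800 cells (-2.91, SE 0.15), with no overlap. *Gbp7* (ENSMUSG00000040253, chr3:142530342-142550149), a member involved in oxidant production at bacterial vacuoles, had 730.23 and 425.84 counts against 89.64 and 82.72. Its levels were 15.4 ± 3.77 CPM and 2.53 ± 0.0569 CPM, 6.09-fold lower in PD800 cells (-2.60, SE 0.20). The PD100 replicates of *Gbp7* differed more than those of its neighbours, but the groups did not overlap.

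*Gbp5* (ENSMUSG00000105504, chr3:142493978-142522344), a lipid-anchored member that promotes inflammasome assembly, opens the cluster and stood apart from the rest of it. It had 17 and 19 counts at PD100 and 17 and 16 in PD800 cells, above the floor in every library. The levels of 0.495 ± 0.105 CPM and 0.485 ± 0.0177 CPM overlapped between the groups (log2 fold change -0.02, SE 0.33), and the sign changed between settings (-0.23 to 0.18). With an SE of that size, a moderate change in either direction was not detectable at this depth.

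Of the members of chromosome 5, *Gbp4* and *Gbp9* carried most of the counts. *Gbp9* (ENSMUSG00000029298, chr5:105077630-105139539) had 221.29 and 184.43 counts at PD100 and 58 and 60.30 in PD800 cells. It was at 5.50 ± 0.0308 CPM and 1.74 ± 0.186 CPM, 3.15-fold lower in PD800 cells (-1.66, SE 0.17), and the groups were well apart. *Gbp4* (ENSMUSG00000079363, chr5:105115767-105139586) had 366.64 and 231.52 counts against 184.99 and 147.71. Its levels of 8.0 ± 1.52 CPM and 4.87 ± 0.388 CPM differed by 1.64-fold (-0.72, SE 0.17), the smallest difference among the members whose groups did not overlap.

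The other 3 members of chromosome 5 had few reads. *Gbp6* (ENSMUSG00000104713, chr5:105270702-105293698) had 41.80 and 36.88 counts at PD100 and 2 and 5.96 in PD800 cells, which is 1.07 ± 0.0491 CPM against 0.120 ± 0.0917 CPM. The groups did not overlap, but the size of the difference rested on single reads at PD800. The estimate was -3.15 (SE 0.47) on the log2 scale, -2.50 without PD800 replicate 1 and -4.19 without PD800 replicate 2. *Gbp8* (ENSMUSG00000034438, chr5:105014150-105139540) had 13.07 and 6 counts against 4 and 1, with no overlap but with 1 PD800 library under the floor. *Gbp10* (ENSMUSG00000105096, chr5:105215699-105239533) had 3.90 and 3.05 counts at PD100, just above the floor, and none in PD800 cells. *Gbp11*, a further gene of the family annotated as a polymorphic pseudogene, had between 1.01 and 2.12 counts in every library and so was not detected.

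How far reads could be divided between members was examined with the annotated transcripts. No 100-base stretch of *Gbp2* or *Gbp2b* occurred in any other gene, and at most 1.65% of the stretches of *Gbp3*, *Gbp4*, *Gbp7* and *Gbp9* and 4.39% of those of *Gbp8* occurred in another member. The counts of *Gbp2*, *Gbp2b* and *Gbp5* were whole numbers in all 4 libraries, within 0.005. Those of *Gbp4* and *Gbp7* were whole in none, those of *Gbp9* in 1, of *Gbp3* in 2 and of *Gbp8* in 3, so some of their reads were divided. *Gbp6* and *Gbp10* shared the most, since 36.3% of the stretches of *Gbp6* were found in *Gbp10* and 60.1% of those of *Gbp10* in *Gbp6*. Their longest transcripts aligned at 98.48% identity over 1380 bases. The annotated gene Gm43302, which spans both and was added after the values were seen, raised the shared stretches of *Gbp6* to 64.5%. Summed over *Gbp6*, *Gbp10* and Gm43302, which does not depend on the division, there were 46 and 39.93 counts at PD100 against 2 and 5.96 in PD800 cells, too few at PD800 for a stable fold. Of the stretches of *Gbp7*, 10.01% were shared with any other gene, which were *Gbp3* and the pseudogene Gm43802 inside the cluster. Strand was not stated for the counting, so that overlapping genes on either strand could also exchange reads.

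**Figure D2:**
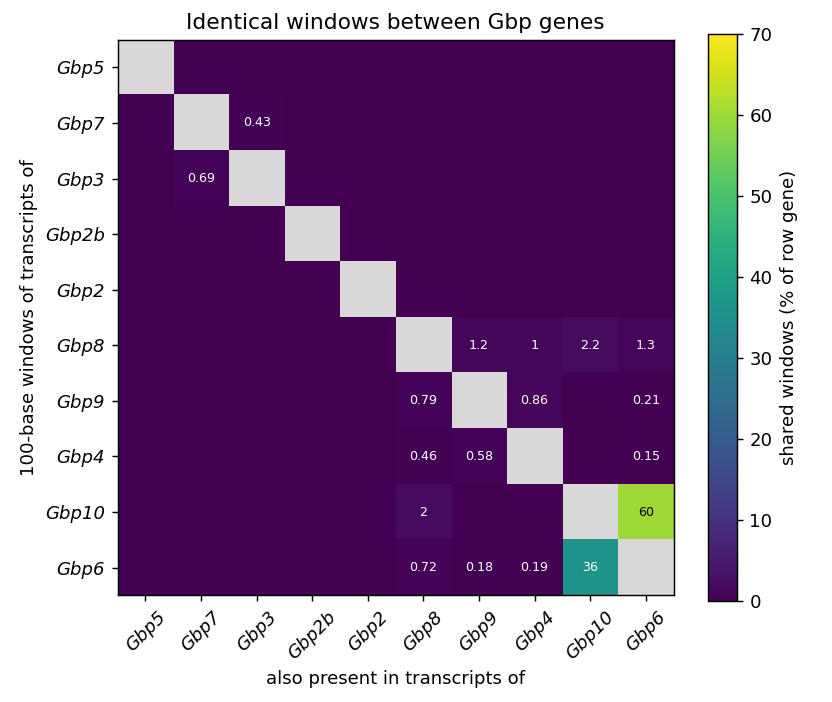
Share of the 100-base stretches of each gene's transcripts (rows) that also occur, letter for letter, in the transcripts of another Gbp gene (columns), in percent. *Gbp10* and *Gbp6* share 60.1% and 36.3% of theirs, and every other pair of the 10 members is under 3%.

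On the scale of TPM, in which RSEM corrects for transcript length and library size, the order of the members differed between the groups. In PD100 cells the TPM level was highest for *Gbp2* (11.94 to 14.83), *Gbp2b* (11.57 to 12.09) and *Gbp3* (9.94 to 10.48), and *Gbp2* and *Gbp2b* overlapped each other. *Gbp7* (2.51 to 3.01) and *Gbp4* (1.43 to 2.95) came next and overlapped too, followed by *Gbp9* at 1.03 to 1.05. *Gbp6*, *Gbp5*, *Gbp8* and *Gbp10* were all under 0.3 TPM. In PD800 cells *Gbp3* led at 1.22 to 1.42 TPM, *Gbp4* followed at 0.81 to 0.97 and *Gbp2* at 0.51 to 0.58, each apart from the next. *Gbp2b* (0.38 to 0.43) and *Gbp7* (0.33 to 0.40) overlapped in PD800 cells. *Gbp2*, the first member at PD100, was thus the third in PD800 cells.

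The make-up of the summed TPM shifted accordingly. *Gbp2*, *Gbp2b* and *Gbp3* together made 83.1% and 86.1% of the family's TPM at PD100 and 58.3% and 56.2% in PD800 cells. The share of *Gbp4* was 6.65% and 3.62% at PD100 and 23.8% and 21.1% in PD800 cells. *Gbp3* made 22.4% and 26.6% at PD100 and 34.8% and 31.8% in PD800 cells, but RSEM's length for it was 1951.34 bases in PD800 replicate 1 against 2580.27 to 2663.69 in the other libraries, and its share of the counts overlapped between the groups (20.4% and 24.7% against 22.5% and 26.9%). In counts, the share of *Gbp2*, *Gbp2b* and *Gbp3* together was 77.2% and 81.6% at PD100 against 43.6% and 47.5% at PD800, and that of *Gbp4* was 5.99% and 4.70% against 29.3% and 24.7%, so that neither overlapped. The total itself was 44.34 and 39.47 TPM at PD100 against 4.08 and 3.84 TPM in PD800 cells. The TPM of *Gbp4* at PD100 also depended on the transcript length that RSEM estimated, 2556.36 bases in replicate 1 and 3559.25 in replicate 2.

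**Figure D3:**
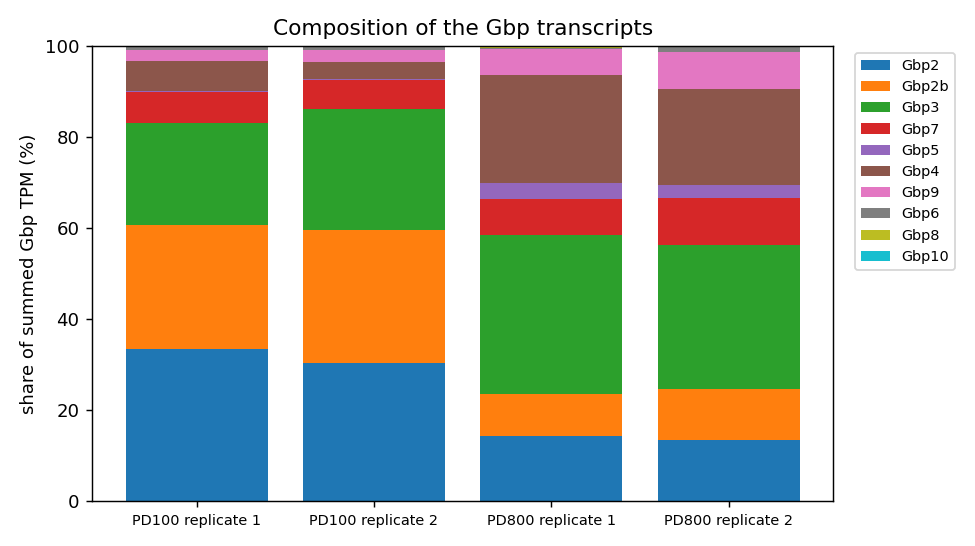
Share of each member in the summed TPM of the 10 Gbp genes (vertical axis, percent) in each of the 4 libraries. *Gbp2*, *Gbp2b* and *Gbp3* fill 83.1% and 86.1% of the PD100 bars and 58.3% and 56.2% of the PD800 bars, where *Gbp4* takes 23.8% and 21.1%.

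The genes whose levels over the 4 libraries were most like the family sum were sought among 14681 genes by the root mean square distance of their centred log2(CPM + 0.1) values. The closest were *Cdcp1* (distance 0.0196), *F3* (0.0355), *Hsh2d* (0.0413), AA986860 (0.0451) and *Car4* (0.0466). *F3*, the gene of tissue factor, had 2253 and 1865 counts at PD100 and 225 and 210 in PD800 cells. *Cdcp1*, which encodes a membrane glycoprotein, had 853 and 673 counts against 86 and 79. With 2 groups of 2 libraries, such likeness says only that the difference was of the same size and the replicates were close.

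The inducers of the family were next examined, in genes chosen after the other lists had been seen. Interferon-gamma itself (*Ifng*) had no count in any library, which allows at most 0.0743 to 0.0933 CPM. Of 21 genes of interferons, 16 were at 0 in every library and 18 never exceeded 3 counts. The 3 others were *Ifnk* (13 and 10 counts at PD100, 1 and 9 in PD800 cells), *Ifnb1* (8 and 0, then 3 and 2) and *Ifna13* (2 and 6, then 2 and 2). The groups overlapped in *Ifnb1* and *Ifna13*, and too few reads were present for a test.

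Among the 16 genes of interferon signalling, all of which were tested, none rose and 6 fell, and the median log2 fold change was -0.54. Of the receptors, *Ifngr1*, the ligand-binding chain of the interferon-gamma receptor, had 187 and 151 counts at PD100 and 51 and 50 in PD800 cells and fell (-1.62, SE 0.17, edgeR adjusted p = 0.000835). *Ifngr2*, its signalling chain, had a log2 fold change of -0.71 (adjusted p = 0.00745), under the 2-fold threshold. The chains of the type I interferon receptor did not pass either, with -0.38 for *Ifnar1* (adjusted p = 0.0169) and 0.05 for *Ifnar2* (adjusted p = 0.751), the latter negative in the analyses of TPM. Of the kinases, *Jak2* fell from 739 and 590 counts to 293 and 215 (-1.28, SE 0.12, adjusted p = 0.000541), whereas *Jak1* was at -0.09 (adjusted p = 0.438).

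The transcription factors of the pathway differed among themselves. *Irf1*, which binds ISRE motifs in the promoters of Gbp genes, had 1617 and 1386 counts at PD100 and 615 and 534 in PD800 cells and fell (-1.27, SE 0.08, edgeR adjusted p = 0.00013). *Stat2* (-0.47, edgeR adjusted p = 0.00335) was past the p threshold but not 2-fold, and *Irf9* (-0.29, adjusted p = 0.0662) passed neither. The other 3 genes of this list that fell were *Irf2*, the inhibitor of cytokine signalling *Socs1* and *Usp18*, which restrains the type I response.

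The IRG proteins, the partners of the guanylate binding proteins at vacuoles, were represented by 13 genes, of which 10 were tested. None rose and 4 fell, with a median of -1.34. *Igtp* had 891.55 and 741.39 counts at PD100 and 176.77 and 149.29 in PD800 cells (-2.21, SE 0.09, edgeR adjusted p = 5.49e-05). *Irgm2* (-1.63, adjusted p = 0.000448) and *Irgm1* (-1.24, adjusted p = 0.000486), regulators that keep other GTPases off the membranes of the host, fell as well. *Irgm2* overlaps *Igtp* on the same strand of chromosome 11, and neither had a whole count in any library. Reads were thus divided between genes there, and the falls of *Igtp* and *Irgm2* are not independent. *Tgtp2* had 35.49 and 38.54 counts against 3.40 and 0 and passed (-4.42, adjusted p = 0.00338), but its near-identical copy *Tgtp1* did not (-0.67, adjusted p = 0.0561), and how their shared reads were divided is uncertain. The size for *Tgtp2* rested on few reads at PD800, with -3.55 without PD800 replicate 2 and a fitted -8.16 against no read without PD800 replicate 1.

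Genes of antigen presentation, another target group of interferon-gamma, numbered 18, of which 16 were tested. None rose and 11 fell, with a median of -1.53. *Psmb8*, a subunit of the immunoproteasome, had 269.97 and 264 counts at PD100 and 15 and 9 in PD800 cells (-4.36, SE 0.24, edgeR adjusted p = 0.000105). *Nlrc5*, the transactivator of class I genes, was at -2.63 (adjusted p = 0.00124). The peptide transporter gene *Tap2* (-2.46, adjusted p = 0.000477) and the peptide-trimming *Erap1* (-2.46, adjusted p = 0.000196) fell as well.

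The interferon-stimulated genes, mostly antiviral effectors, numbered 33, of which 32 were tested. Here 17 fell and 2 rose, with a median of -1.12. *Isg15*, a ubiquitin-like modifier, had 928 and 1026 counts at PD100 and 54 and 55 in PD800 cells (-4.06, SE 0.19, edgeR adjusted p = 7.06e-05). *Sp100*, with few reads and none in PD800 replicate 2, was at -4.10 (adjusted p = 0.00406; -3.20 without PD800 replicate 2 and a fitted -8.79 against no read without PD800 replicate 1), the RNA sensor *Ifih1* at -3.28 (adjusted p = 0.000132) and the virus tether *Bst2* at -2.93 (adjusted p = 6.95e-05). The 2 that rose were *Oas2*, from 1072 and 765 counts to 2420 and 2100 (1.42, adjusted p = 0.000188), and *Ifi27*, from 1405 and 1238 to 3682 and 3280 (1.51, adjusted p = 8.27e-05).

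Over these 4 lists together, 38 of 74 tested genes fell (51.4%, against 8.81% of all tested genes) and 2 rose, and 65 of the 74 had a log2 fold change below 0. The lists had been chosen with earlier results of these data known, so these shares describe them only. The median was -1.19, beside -2.76 for the 8 tested Gbp members and 0.01 for all tested genes. With the fold change over 2 tested within the model, 20 fell. Of the genes named, *Tgtp2* and *Nlrc5* lost their call with limma at both pseudocounts, and *Ifngr1*, *Jak2* and *Sp100* with log2(TPM + 1). In the 3 lists without a rise by edgeR, DESeq2 called none higher either, and at an unadjusted p under 0.05 the only gene higher was 1 of interferon signalling. The plot of log2 fold changes by list shows the Gbp members spread from the lower end of the interferon lists up to 0.

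**Figure D4:**
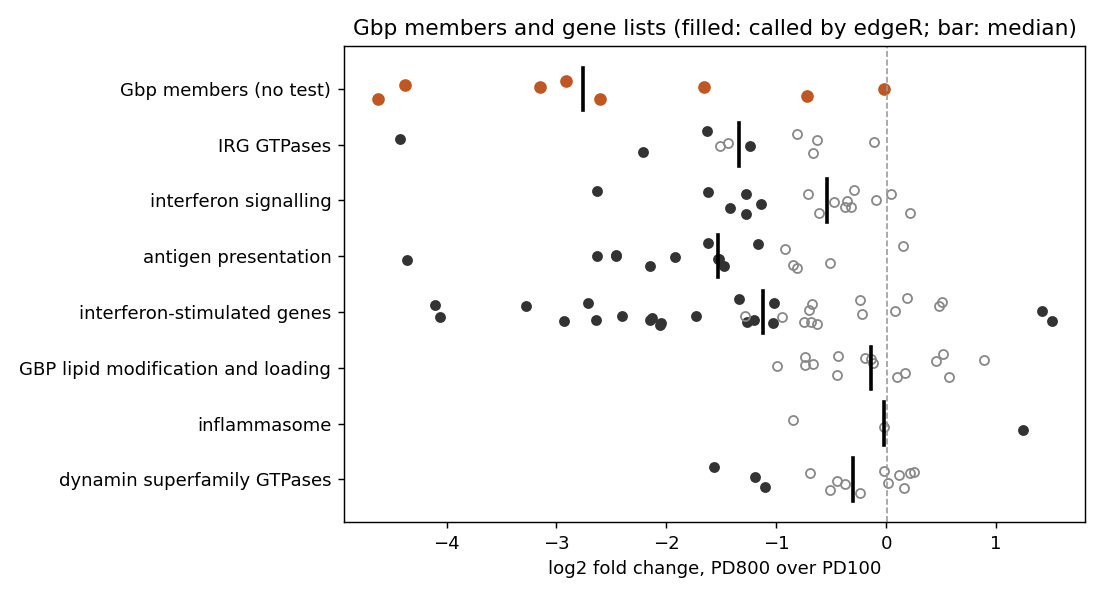
Log2 fold change (PD800 over PD100) of the tested genes of each list, 1 point per gene, with the median as a bar. Filled dark points passed the edgeR thresholds, open points did not, and the 8 tested Gbp members (orange) have no test. The medians are -2.76 for the Gbp members, -1.34, -0.54, -1.53 and -1.12 for the 4 interferon lists, and between -0.30 and -0.02 for the last 3.

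Genes that act on or with the proteins of the family had medians closer to 0. The list of lipid modification and loading, which holds the farnesyl and geranylgeranyl transferases, the ATG8-conjugation factors that direct guanylate binding proteins to vacuoles, and *Pim1*, had 15 tested genes with a median of -0.14. By edgeR none passed in either direction, although 4 were lower and 4 higher at an adjusted p under 0.01, with changes under 2-fold. At an unadjusted p under 0.05, 6 were lower and 4 higher, and DESeq2 called 1 gene of the list lower. Of 8 inflammasome genes only 3 had enough reads for the test. *Pycard*, the adaptor ASC, rose from 504.08 and 459.46 counts to 1109.16 and 1009.48 (1.25, SE 0.09, edgeR adjusted p = 0.00021), but was under 2-fold with limma on TPM (0.84 and 0.91). *Casp4*, whose protein guanylate binding proteins help to activate, had 9 and 5 counts at PD100 and 0 in both PD800 libraries. It was at least 2.11-fold lower there, taken against the mean floor of 3 counts per library. Of 14 other GTPases of the dynamin superfamily, none rose by edgeR or DESeq2 (1 was higher at an unadjusted p under 0.05) and 3 fell, with a median of -0.30. These were *Ehd2* (-1.57), *Atl2* (-1.19) and *Ehd4* (-1.10), which act in membrane remodelling.

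Markers of other cells were picked with their values in view. They moved with the groups, and their part in the Gbp levels was not tested. All 12 primitive endoderm genes fell (median -3.47), and their summed level was 3223 and 3645 CPM at PD100 against 323.0 and 333.8 CPM in PD800 cells. Of 10 tested fibroblast genes out of 11, 5 fell (median -1.71), the sum was 55.9 and 77.5 CPM against 18.8 and 19.7 CPM, and *Lum* was at 0 in 3 libraries and had 1 count in the other. Of 5 tested macrophage genes out of 8, 3 fell and *Itgam* rose (median -1.85), with sums of 23.1 and 15.6 CPM against 10.9 and 10.1 CPM, and *Aif1* never exceeded 3 counts. Of 7 endothelial genes 3 fell (median -0.52), and 6 had a log2 fold change below 0. Their sums of 112.4 and 110.5 CPM against 116.2 and 110.5 CPM overlapped. Most of each sum was *Pecam1*, the 1 gene above 0 (0.33), with 65.1 and 58.6 CPM against 80.3 and 75.7 CPM. The 10 markers of embryonic stem cells were all expressed, and 4 rose (*Nanog*, *Esrrb*, *Klf4* and *Fgf4*) while none fell by edgeR or DESeq2, nor was any lower at an unadjusted p under 0.05 (median 0.59). No marker of these lists was at 0 in all 4 libraries.

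Whether the genes around the clusters shared the difference was examined with the 10 nearest tested genes on each side. The farthest of them lay 4004 kb from the cluster on chromosome 3 and 1546 kb on chromosome 5. Of these 40 genes, 12 rose (30%, against 6.28% of all tested genes) and 2 fell (5%, against 8.81%), and 34 had a log2 fold change above 0. The 40 are not all separate loci, since among those that rose Gm42793 lies inside *Spp1* and Gm43707 inside *Hs2st1*. The median of the neighbours was 0.76. Without the Gbp genes, the median was 0.33 over the 990 tested genes of chromosome 3 and 0.13 over the 1304 of chromosome 5. In the analyses of TPM by limma, 4 and 5 neighbours rose.

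On chromosome 3 the neighbours beyond *Gbp2* had a median of 1.23, and 7 of 10 rose. The nearest, *Kyat3*, which encodes an aminotransferase of the kynurenine pathway, starts 63.0 kb after the cluster. It had 392 and 333 counts at PD100 and 1978.88 and 1734.99 in PD800 cells (2.47, SE 0.08, edgeR adjusted p = 3.82e-05). The general transcription factor gene *Gtf2b* (1.29), the kinase gene *Pkn2* (1.16), 9530052C20Rik (1.89), *Lmo4* (1.71), *Hs2st1* (1.31) and Gm43707 (1.18) rose as well. Between *Gbp2* and *Kyat3*, adjacent among the tested genes, the log2 fold change thus passed from -4.38 to 2.47. Of the low-count genes, 9530052C20Rik lost its call with DESeq2 and without PD100 replicate 2 (1.74) or PD800 replicate 1 (1.67) or 2 (2.07), and Gm43707 without PD800 replicate 1 (1.14) or 2 (1.20). On the side of *Gbp5* the median was 0.44, and the nearest gene, *Pdlim5*, lay 98.3 kb away at 0.76 (adjusted p = 0.00186, under 2-fold). *Unc5c*, the netrin receptor gene, fell there (-1.77, adjusted p = 0.00887), with 42 and 26 counts against 8 and 10, but not by DESeq2 nor without PD100 replicate 1 (-1.54) or PD800 replicate 1 (-1.54) or 2 (-2.02).

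On chromosome 5 the side of *Gbp8* had a median of 0.98, and 4 of 10 genes rose. They were *Spp1* (1.92), the gene of osteopontin, *Zfp951* (1.21), Gm42793 (2.06) and Gm26703 (1.69). Gm26703 lost its call with DESeq2 and without PD100 replicate 2 (1.53) or PD800 replicate 1 (1.45) or 2 (1.88), and *Zfp951* without PD100 replicate 2 (0.9997). The nearest gene there, *Abcg3*, 31.4 kb away, had few reads and a log2 fold change of 0.61 (edgeR adjusted p = 0.223). Beyond *Gbp6* the median was 0.13, *Hfm1* rose (1.32, but not without PD800 replicate 1 or 2), and the nearest gene, *Lrrc8b*, 122.1 kb away, was at -0.30 (adjusted p = 0.0544). *Lrrc8c*, a subunit of volume-regulated anion channels and the second gene on this side, had 363 and 283 counts at PD100 and 59 and 46 in PD800 cells and fell (-2.50, SE 0.15, adjusted p = 0.00013). DNA copy number was not analysed here.

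**Figure D5:**
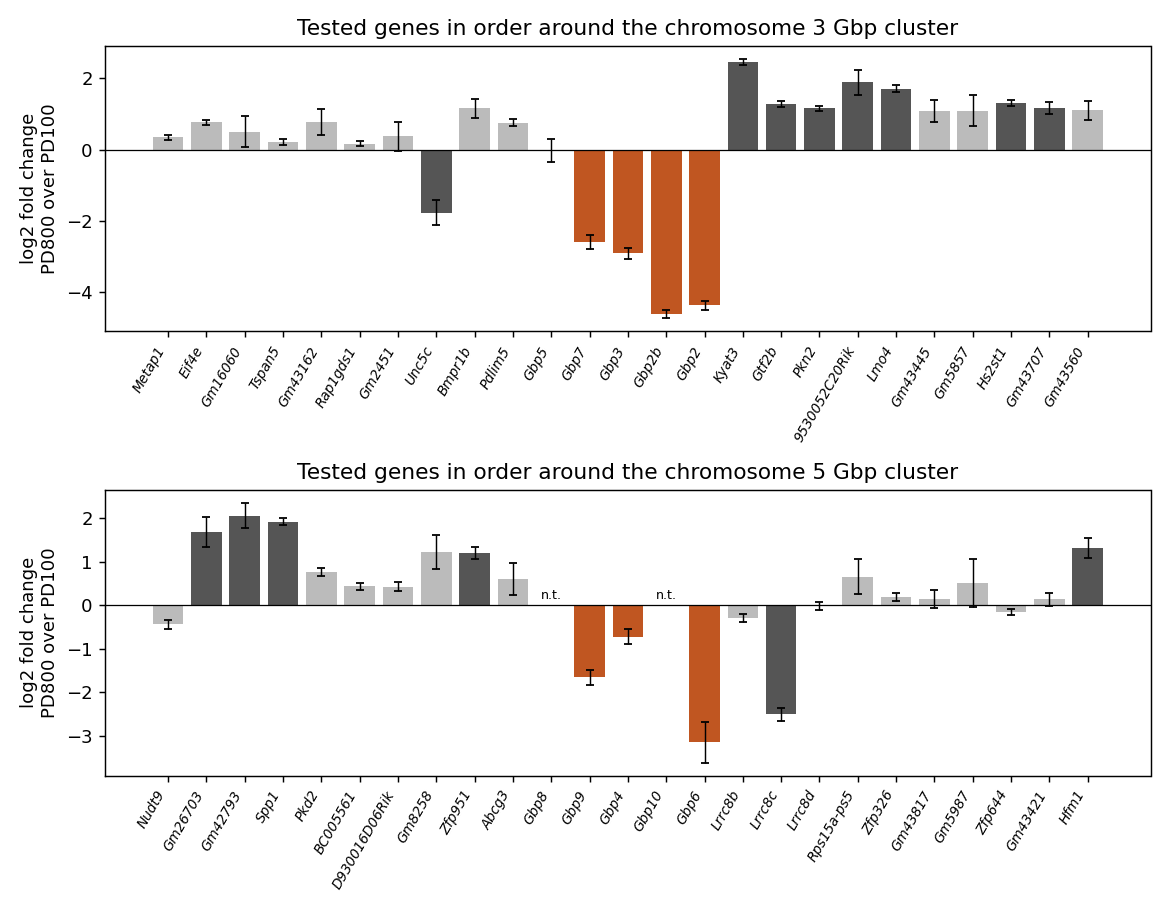
Log2 fold change (PD800 over PD100, vertical axis) with its standard error for the Gbp genes (orange) and the 10 nearest tested genes on each side, in chromosomal order, not to distance. Dark bars passed the edgeR thresholds, light bars did not, and n.t. marks members with too few reads for the test. The bars pass from -4.38 at *Gbp2* to 2.47 at *Kyat3*, and the median of all 40 neighbours is 0.76.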

How the data were processed

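RNA of 2 PD100 and 2 PD800 libraries was sequenced as paired ends. The authors aligned the reads to mm10 with STAR 2.5.3a, and the deposited files hold, from RSEM 1.3.0, the expected count of each gene, which divides reads that align to several genes, and its TPM. The deposited FPKM values and lengths were not used in tests. The annotation release was not given in the sources used here, and 53274 of the 53379 identifiers were found in GENCODE M21. The submitters' notes name DESeq2 1.18.1. Replicates differed beyond sampling noise, with a chi-square of 66.3 (PD100) and 10.2 (PD800) per degree of freedom.

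Expected counts were rounded and fitted on the whole table by the quasi-likelihood test of edgeR 4.0.16 (R 4.3.3) after filterByExpr at a minimum of 10 and TMM, with Benjamini-Hochberg adjustment. The common dispersion was 0.0136. The procedure was tested on simulated data. Transcripts were compared with blastn 2.17.0. Members and lists were chosen with earlier results of these data known. Named were all members and *Gbp11*, 10 genes of interferon signalling (1 of them is not reported here), the 4 called genes with the largest changes of each other list, the nearest and any called gene beside the clusters, and the 5 genes most like the family sum. Other genes named, markers of other cells and interferons included, were picked with their values in view.

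Alternatives were DESeq2 1.42.0, its size factors or upper-quartile factors in edgeR, no filter or a minimum of 10 in each library, a replicate block, limma 3.58.1 on log2(TPM + 1) and log2(TPM + 0.1), other thresholds, and each library left out in turn.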

Additional observations from a re-analysis of the deposited data

How the results depend on the processing

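Over all genes, 297 rose and 920 fell with limma on log2(TPM + 1). With limma on log2(TPM + 0.1), 533 rose. With the fold change over 2 tested in the model, 386 rose and 685 fell, and at an adjusted p under 0.05 with no fold threshold 4224 and 4515 did. The share of rises among called genes was 41.6% by edgeR and 24.4% and 23.1% by limma on TPM, where the median of all tested genes was -0.12 and -0.21 instead of 0.01. Of the interferon genes, 20 instead of 38 fell with the fold change tested in the model, and of the other lists, 0 instead of 1 rose with limma. Beside the clusters, 4 and 5 genes rose with limma at pseudocounts of 1 and 0.1 TPM, and 1 instead of 2 fell with DESeq2, with at least 10 counts in every library and with limma; when single libraries were left out, 1 to 2 fell. With limma, *Ifnar2* was at -0.32 and -0.39 instead of 0.05. The log2 difference of the family sum was -3.37 with log2(TPM + 0.1), that of chromosome 3 was -3.38 and -3.75 with log2(TPM + 1) and log2(TPM + 0.1), and that of chromosome 5 was -1.48 with log2(TPM + 0.1). Over the alternatives, *Gbp2b* ranged from -4.75 to -3.19, *Gbp2* from -4.48 to -3.21, *Gbp3* from -3.09 to -2.27, *Gbp7* from -2.85 to -1.46, *Gbp9* from -1.77 to -0.68, *Gbp4* from -1.13 to -0.51 and *Gbp5* from -0.23 to 0.18. *Gbp6* ranged from -4.19 to -0.30, the last with log2(TPM + 1), which compresses low values by construction. For single genes, 549 values kept their side of the thresholds or moved by less than the spread between replicates, 44 lost the call and 10 moved by more than the spread, while 4 values of *Gbp5* and 2 of *Ifnar2* changed sign. Otherwise the causes were not tested.

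Replicates with the same number shared only that number in the labels, and their deviations correlated at 0.265 over genes. With a replicate block, 1461 genes rose and 1956 fell, 41 interferon genes fell, 14 neighbours rose, and the family sum was at -3.05. Depth limited *Gbp5*, *Gbp6*, *Gbp8* and *Gbp10*, since 3 counts were 0.0743 to 0.0933 CPM. The sums of members under DESeq2 and under the filters were not run.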

Other observations

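The annotated relatives of the family inside or beside the clusters were chosen after their values were seen. *Gbp2-ps*, a pseudogene beyond *Gbp2* on chromosome 3, had no count in 3 libraries and 1 in PD800 replicate 2. Gm43802, a processed pseudogene inside the chromosome 3 cluster that shares stretches with *Gbp7*, had 20.02 and 23.80 counts at PD100 against 1.36 and 7.28 at PD800, with a log2 fold change of -2.31 that did not pass (edgeR adjusted p = 0.0345). Gm43302, which spans *Gbp6* and *Gbp10*, had 0.30 counts in PD100 replicate 1 and none elsewhere.

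ISRE and GAS cores were also counted in the RefSeq promoters of the other lists. The ISRE core was found in 7 of 9 IRG genes, 14 of 24 interferon-stimulated genes, 3 of 13 genes of antigen presentation and 3 of 14 of interferon signalling, against 3.44% of all promoters. It was in 1 of 6 macrophage markers and in none of the 11 genes of lipid modification and loading, 13 dynamin superfamily genes, 7 inflammasome genes, 9 embryonic stem cell, 6 fibroblast, 4 endothelial or 7 primitive endoderm markers. The GAS core was found in 5 of 9 IRG genes, 6 of 24 interferon-stimulated genes, 1 of 13 genes of antigen presentation, 5 of 14 of interferon signalling and 2 of 11 of lipid modification and loading, against 8.30% of all promoters. It was also in 1 of 6 macrophage, 1 of 9 embryonic stem cell and 1 of 7 primitive endoderm markers, and in none of the other 4 lists. These are matches of letters in genes whose lists were chosen with results of these data known.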
